A study of Mus musculus with 2 samples.

Results

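Immature neurons of the adult dentate gyrus are recognised by genes that build and regulate the cytoskeleton and by genes of early neuronal maturation. Here 10 such genes were followed, chosen by symbol from the 22587 gene symbols counted in both libraries: Dcx, Map1b, Tubb3, Stmn1, Stmn2, Elavl2, Elavl4, Calb2, Pcp4 and Igfbpl1. All 10 were present in both count matrices. YFP+ cells had been sorted from the hippocampus of mice that carried Nestin-CreERT2 and ROSA26YFP, with tamoxifen (TAM) given at 8 weeks and cells collected at 12 weeks of age, 4 weeks post-TAM. In the Opa1 cKO mice the Opa1-Flox allele was also present, so that Nestin-driven Cre removed Opa1, which codes for a fusion protein of the inner mitochondrial membrane, and switched on YFP in neural stem cells (NSCs) and their progeny. The control transgenic mice (CT) were Opa1-Flox negative according to the sorting protocol, although the strain label lists Opa1-Flox for both samples. They received TAM and carried Cre and YFP as well. Cells of 3 mice were pooled for each genotype into 1 library of the 10x Genomics 3′ v2 assay, in which each captured mRNA molecule is counted once by its unique molecular identifier (UMI). Since each genotype is represented by 1 library, the genotypes could not be tested against each other, and the values below describe these 2 libraries.

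As a newborn neuron leaves the cell cycle, it extends processes and migrates a short way into the granule cell layer, and it relies on a microtubule network that is both stable and readily rearranged. Doublecortin (Dcx) and Map1b bind and stabilise microtubules, and Tubb3 is the neuronal class of beta-tubulin. The stathmins Stmn1 and Stmn2 bind free tubulin and promote the turnover of microtubules. The Hu proteins Elavl2 and Elavl4 bind AU-rich mRNAs and aid neuronal differentiation, calretinin (Calb2) buffers calcium in a transient stage of young granule neurons, Pcp4 modulates calmodulin, and Igfbpl1 is a secreted protein of the insulin-like growth factor binding family found in neuroblasts.

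The sequence just upstream of the transcription start is shown for Dcx and Map1b, whose levels were lower in Opa1 cKO by the largest ratios, and for Pcp4, whose level was higher. RefSeq promoter windows matched 6 of the 10 genes, namely Dcx, Map1b, Tubb3, Elavl2, Elavl4 and Pcp4, and no window was available for Stmn1, Stmn2, Calb2 and Igfbpl1. Of the 250 bases before the RefSeq start nearest to the GENCODE gene start, those outside the GENCODE gene are printed 5′ to 3′ in build GRCm38.p6, from chrX:143933312-143933469 (minus strand), chr13:99516603-99516852 (minus strand) and chr16:96467356-96467605 (plus strand), so that the Dcx stretch has 158 bases and the other two all 250. Capitals mark the E-box letters CANNTG, which neurogenic bHLH factors can bind, and the TATA-box letters TATAAA, both searched on both strands.
Dcx: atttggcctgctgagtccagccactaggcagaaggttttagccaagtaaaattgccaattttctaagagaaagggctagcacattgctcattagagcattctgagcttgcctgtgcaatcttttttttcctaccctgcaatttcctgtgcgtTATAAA
Map1b: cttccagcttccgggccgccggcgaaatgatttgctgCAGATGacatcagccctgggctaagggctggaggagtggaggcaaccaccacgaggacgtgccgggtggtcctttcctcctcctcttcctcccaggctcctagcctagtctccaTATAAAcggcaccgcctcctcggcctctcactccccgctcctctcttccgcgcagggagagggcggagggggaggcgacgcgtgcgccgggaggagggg
Pcp4: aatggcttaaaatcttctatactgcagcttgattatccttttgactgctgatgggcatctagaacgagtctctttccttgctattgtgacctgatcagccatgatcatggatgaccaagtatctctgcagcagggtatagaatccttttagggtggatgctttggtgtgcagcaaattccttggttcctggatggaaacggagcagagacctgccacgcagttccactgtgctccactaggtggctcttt

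The Dcx and Map1b windows each held 1 match to TATAAA, and the other 4 windows held none, while 12.4% of all 32851 RefSeq windows of this length held at least 1. An E-box was found only in the Map1b window, as CAGATG, which is one form of CANNTG, against 66.2% of all windows with a CANNTG match and 14.4% with CAGATG on either strand. The Elavl2 window lay wholly inside the GENCODE gene. The Dcx match bordered the GENCODE gene start and did not lie next to the RefSeq start. These matches describe letters within the windows and not their place relative to the start in use, and binding was not measured.

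Depth was 10799936 UMIs over 4634 barcodes for CT and 18662032 UMIs over 6475 barcodes for Opa1 cKO, and 36 barcode sequences occurred in both libraries. After filters on genes, mitochondrial share and YFP, 1790 CT and 3764 Opa1 cKO cells were kept, and 9 barcodes were shared among these, none of them in the progenitor and neuron-like class. Cells were clustered without the 10 genes and without the mitochondrially encoded (mt-) genes, and clusters were named from other markers, with the ending -like. Levels are counts of a class scaled to its total UMIs (CPM). The class named progenitor and neuron-like held 140 CT and 172 Opa1 cKO cells, with a median of 2831 and 3146 UMIs per cell. The NSC pool-like class joined 2 clusters, of which one, led by Nupr1 and other stress genes, held 2 CT and 1864 Opa1 cKO cells. The progenitor and neuron-like class was led by Sox11, Neurod1 and Sox4 beside genes of the set itself, and all 20 neuroblast or immature neuron markers were detected in each library. Opa1 was at 18.9 CPM in CT against 7.61 CPM in Opa1 cKO NSC pool-like cells, and had 10 and 3 UMIs in the progenitor and neuron-like class; 3′ counting also reads transcripts without the deleted exons, so this is a limited check of the labels.

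The 10 genes marked the same class in both libraries. Each of the 10 had its highest level in progenitor and neuron-like cells of CT and of Opa1 cKO, and there the interval of its CPM did not overlap that of the class next in order. The share of all genes with their highest level in this class was not counted, so this describes where the genes were found. Igfbpl1 was at 2528 CPM in CT against 2784 CPM in Opa1 cKO in that class, whereas NSC pool-like cells had 3.84 and 3.46 CPM. Dcx was at 362 CPM in CT against 179.5 CPM in Opa1 cKO, and at 0.548 and 0.577 CPM in NSC pool-like cells, where it rested on 2 and 5 UMIs. Among the kept cells, 98.2% of all Dcx UMIs of CT and 83.8% of those of Opa1 cKO lay in the progenitor and neuron-like class. For Dcx, Elavl2, Elavl4, Calb2 and Igfbpl1 the remaining classes stood at or under 36.3 CPM, and nearly all neighbours in their order had overlapping intervals.

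Several of the 10 genes were also detected outside that class. Stmn1, which many cell types use, was at 3243 CPM in CT against 3709 CPM in Opa1 cKO oligodendrocyte-like cells, and progenitor and neuron-like cells held 5207 and 4973 CPM. Tubb3 in oligodendrocyte-like cells was at 72.9 and 84.9 CPM, above every class other than progenitor and neuron-like cells. Map1b was found in several classes, with 155 and 108 CPM in ependymal-like, 146 and 124 CPM in oligodendrocyte-like, and 77.7 and 120.3 CPM in activated NSC-like cells. The intervals of these Map1b levels overlapped within each library, so that their order is not resolved. In activated NSC-like cells Pcp4 was at 13 CPM (2 UMIs) in CT against 47.4 CPM (52 UMIs) in Opa1 cKO, and in ependymal-like cells it had 0 UMIs in CT, where 0 of 39 cells allows a share of up to 7.69% of cells with a UMI, and 54.7 CPM (52 UMIs) in Opa1 cKO. Stmn2 was at 55.8 and 31.1 CPM in endothelial-like cells, on 13 and 12 UMIs.

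**Figure D1:**
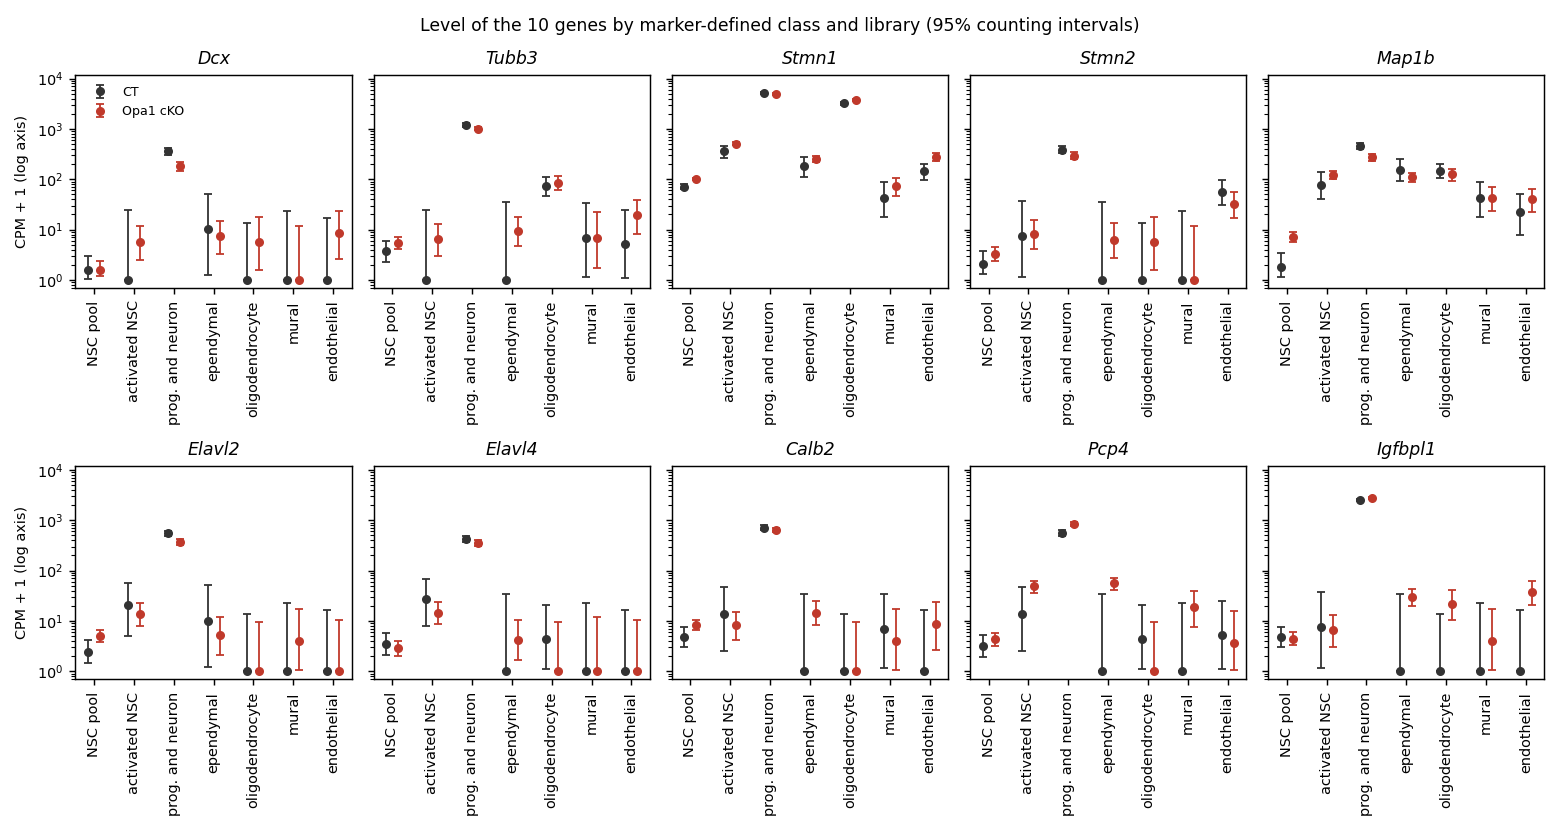
CPM plus 1 of each of the 10 genes (log axis) in 7 marker-defined classes, for the CT library (dark points) and the Opa1 cKO library (red points); bars are 95% Poisson intervals of counting error. Each gene is highest in progenitor and neuron-like cells, and Stmn1 also stands at 3243 and 3709 CPM in oligodendrocyte-like cells.

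Within progenitor and neuron-like cells the set did not move as a block. The microtubule binders were lower in Opa1 cKO, Pcp4 was higher, and the stathmin Stmn1 was nearly level. The median log2 ratio of Opa1 cKO over CT was −0.25 over the 10 genes and −0.02 over all 7170 genes with at least 20 UMIs in the class. Of the 10 genes, 2 were at least 1.5-fold lower in Opa1 cKO (Dcx and Map1b), where 20.1% of all genes were, and 1 was at least 1.5-fold higher (Pcp4), against 15.5% of all genes. These shares are close to those of all genes, and so the count by itself sets the 10 genes apart in neither direction. The 95% interval of the ratio, which covers counting error only, lay wholly below 0 for 5 genes (13.4% of all genes) and wholly above 0 for 2 (11% of all genes), and it narrows with the UMIs of a gene. After thinning each cell to 1500 UMIs, and separately without the filter on YFP, 4 of the 10 genes were at least 1.5-fold lower. The share of all genes at these 2 settings is not given here, so the count of 4 has no background beside it.

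Of the 2 microtubule-associated proteins, Dcx (ENSMUSG00000031285; chromosome X, 143855842 to 143933311, minus strand) had 164 UMIs in CT against 109 in Opa1 cKO, or 362 CPM (309 to 422) and 179.5 CPM (147 to 217). The log2 ratio was −1.01 (−1.38 to −0.65). Map1b (ENSMUSG00000052727; chromosome 13, 99421446 to 99516540, minus strand) was at 462 CPM (401 to 529) in CT against 272 CPM (232 to 317) in Opa1 cKO, which is a log2 ratio of −0.76 (−1.07 to −0.46). For both genes the intervals of the 2 libraries did not overlap. The same held for Tubb3, Elavl2 and Pcp4. The share of all genes with such intervals is not given here, so this does not set Dcx and Map1b apart. Per positive cell the difference in Dcx was visible as well: CT cells with Dcx held 2.1 Dcx UMIs on average, with up to 7 in a cell, and Opa1 cKO cells 1.49, with up to 5.

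The tubulin Tubb3 (ENSMUSG00000062380; chromosome 8, 123411424 to 123422015, plus strand) was at 1201 CPM (1102 to 1307) in CT against 1008 CPM (929.8 to 1091) in Opa1 cKO, with a log2 ratio of −0.25 (−0.42 to −0.08). Among the stathmins, Stmn2 (ENSMUSG00000027500; chromosome 3, 8509360 to 8561606, plus strand) of neurons was at 389 CPM (333 to 451) and 293 CPM (252 to 339.6), which is a log2 ratio of −0.41 (−0.72 to −0.10). Stmn1 (ENSMUSG00000028832; chromosome 4, 134468320 to 134473843, plus strand) was at 5207 and 4973 CPM, and the interval of its log2 ratio, −0.07 (−0.14 to 0.01), reached 0. The sign of this ratio turned under several alternatives, with values up to 0.12. The cytoskeletal genes thus ranged from a level of Dcx that in CT was 2.02 times that in Opa1 cKO to a level of Stmn1 that differed by less than the counting error.

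The RNA-binding proteins differed in degree. Elavl2 (ENSMUSG00000008489; chromosome 4, 91250763 to 91400785, minus strand) was at 548 CPM (482 to 620.2) in CT against 372 CPM (325 to 424) in Opa1 cKO, which is a log2 ratio of −0.56 (−0.82 to −0.29). For Elavl4 (ENSMUSG00000028546; chromosome 4, 110203722 to 110351909, minus strand) the levels were 422 and 356 CPM, and the interval of the log2 ratio, −0.25 (−0.53 to 0.04), reached 0. Of the calcium-linked genes, Pcp4 alone had a ratio outside the range of the cytoskeletal genes. Calb2 (ENSMUSG00000003657; chromosome 8, 110137502 to 110168210, minus strand) had 713 and 647 CPM, with a log2 ratio of −0.14 (−0.36 to 0.08). Pcp4 (ENSMUSG00000090223; chromosome 16, 96467606 to 96525793, plus strand) was higher in Opa1 cKO, with 253 UMIs or 559 CPM (492 to 632) in CT against 518 UMIs or 853 CPM (781 to 930.0) in Opa1 cKO, which is a log2 ratio of 0.61 (0.39 to 0.83). Igfbpl1 (ENSMUSG00000035551; chromosome 4, 45809468 to 45826923, minus strand) was slightly higher, at 2528 CPM (2384 to 2679) and 2784 CPM (2653 to 2919.8), with a log2 ratio of 0.14 (0.03 to 0.25) that came to 0.00 without the filter on YFP. Coordinates are those of GENCODE M21 on mm10; Gm20388 overlaps Tubb3 and Igsf5 overlaps Pcp4 on the same strand, and both had 0 UMIs in the class.

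Other measures moved with genotype in the class. The mt- mRNAs took 4.26% of UMIs in CT against 1.51% in Opa1 cKO. The 16 NSC pool markers summed to 6874 CPM in CT against 11338 CPM in Opa1 cKO, with none at 0, and the 12 cycling progenitor markers to 4231 and 2456 CPM. Calb2 also marks interneurons and Cajal-Retzius cells, whose markers without Calb2 summed to 221 CPM in CT against 237 CPM in Opa1 cKO (4 and 2 of 10 at 0), and 106 and 32.9 CPM (2 and 4 of 6 at 0). In the neuroblast-like sub-clusters of the class, NSC pool markers were nearly level, with sums of 4783 CPM in CT against 4845 CPM in Opa1 cKO. Cycling progenitor markers summed there to 724 and 633 CPM. Interneuron markers summed there to 174 CPM in CT against 394 CPM in Opa1 cKO. Cajal-Retzius markers summed there to 178 and 52.8 CPM. The part of these measures in the values of the 10 genes was not tested. A sub-cluster that bore NSC markers held 4 CT and 14 Opa1 cKO cells, and without it the log2 ratios were −1.02 for Dcx, −0.68 for Map1b and 0.70 for Pcp4. Genotype, pool and library preparation cannot be told apart in this design.

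**Figure D2:**
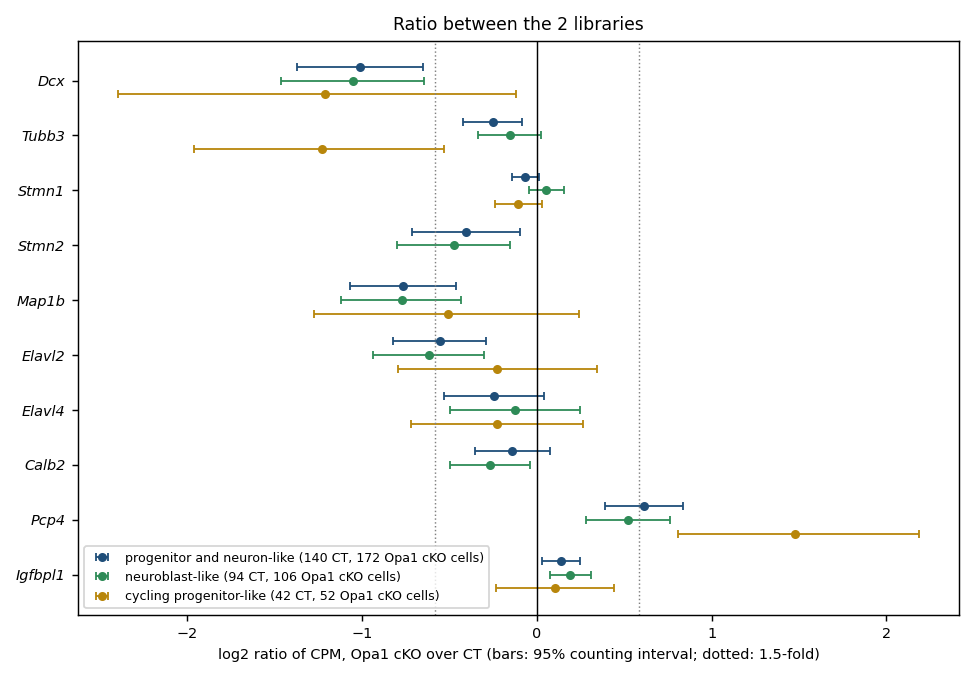
Log2 ratio of CPM, Opa1 cKO over CT, for each of the 10 genes in progenitor and neuron-like (blue), neuroblast-like (green) and cycling progenitor-like cells (gold); bars are 95% counting intervals, dotted lines mark 1.5-fold, and genes with under 20 UMIs in a class are left out. The Dcx point lies left of the 1.5-fold line in all 3 groups, and Pcp4 lies right of 0 in all 3.

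The share of cells in which each gene was detected was compared between the libraries, and the intervals did not overlap for Pcp4 alone. How many of all genes have such intervals was not counted, so this does not set Pcp4 apart from other genes. Shares were compared after each cell had been thinned to 1500 UMIs, in neuroblast-like cells, the sub-clusters of the class named by neuroblast or immature neuron markers (94 CT and 106 Opa1 cKO cells, of which 92 and 99 were deep enough). Dcx was detected in a share of 53.3% in CT (42.6 to 63.7%) and of 34.3% in Opa1 cKO (25.1 to 44.6%), and Map1b in 58.7% and 40.4%. Pcp4 was found in 47.8% (37.3 to 58.5%) and 70.7% (60.7 to 79.4%). The exact binomial intervals of the 2 libraries did not overlap for Pcp4, and those of Dcx and Map1b overlapped. Tubb3 was found in 85.9% and 82.8%, Stmn2 in 50% and 38.4%, Elavl2 in 56.5% and 49.5%, Elavl4 in 42.4% and 43.4%, Calb2 in 55.4% and 46.5%, Igfbpl1 in 95.7% and 93.9%, and Stmn1 in every thinned cell of both libraries. Before thinning, the shares were 66.0% and 53.8% for Dcx, and 57.4% and 74.5% for Pcp4, at median depths of 2489.5 and 2836 UMIs.

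Oligodendrocyte-like cells, with median depths of 3768 and 3914 UMIs, gave the background. After thinning, Stmn2, Elavl2, Elavl4, Calb2 and Pcp4 had 0 positive cells among 74 CT and 101 Opa1 cKO oligodendrocyte-like cells, which allows shares of up to 4.05% and 2.97%, and Dcx and Igfbpl1 in at most 0.990%. For these 7 genes the shares in neuroblast-like cells were far above that background. Tubb3 was found in 8.11% and 6.93% of oligodendrocyte-like cells, Map1b in 18.9% and 9.90%, and Stmn1 in 100% and 97.0%, so for these 3 the class is no empty reference.

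**Figure D3:**
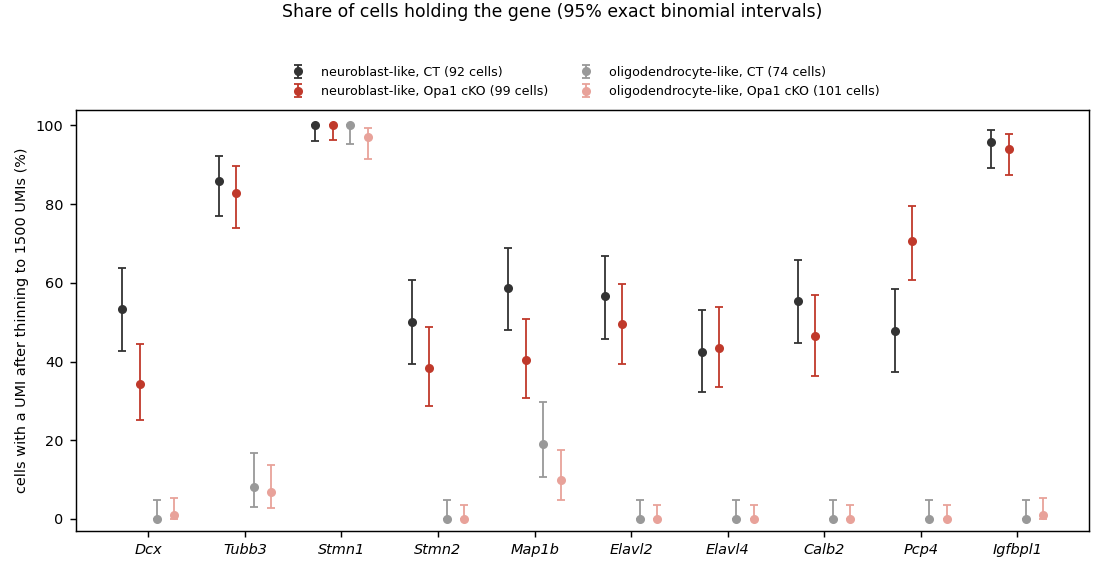
Percent of cells with at least 1 UMI of each gene after thinning to 1500 UMIs per cell, in neuroblast-like cells of CT (dark) and Opa1 cKO (red) and in oligodendrocyte-like cells of CT (grey) and Opa1 cKO (pink); bars are 95% exact binomial intervals. Dcx stands at 53.3% in CT against 34.3% in Opa1 cKO and Pcp4 stands at 47.8% and 70.7%.

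Neuroblast-like cells of CT lay mostly in sub-cluster 0, while those of Opa1 cKO were split nearly evenly. Sub-cluster 1 held 53.8% of the Opa1 cKO cells (43.8 to 63.5%). Sub-cluster 0, with Cck, Vip, Bhlhe22 and Nrgn among its leading genes, held 78 of 94 CT cells (83.0%) and 49 of 106 Opa1 cKO cells (46.2%). It was named on 7 neuroblast or immature neuron markers, and interneurons came second with 2 markers. Sub-cluster 1, with Kcnb2, Neurod6 and Plppr1 among its leading genes and Pcp4, which had not been used for the clustering, also there, held 16 CT and 57 Opa1 cKO cells. Its name rests on 3 markers, the fewest allowed. Mndal and Rwdd3 also led it, and at sub-clustering resolution 0.8 a sub-cluster led by Mndal, Rwdd3 and Pcp4 was named cycling progenitor. That name had 3 markers, and intermediate progenitor also had 3. How many cells the sub-clusters of the 2 resolutions share was not examined. Over the joined neuroblast-like cells the median log2 ratio was −0.21 for the 10 genes and −0.00 for all 4948 genes. In these cells Dcx was at 534 CPM (448 to 632) in CT against 258 CPM (205 to 319) in Opa1 cKO, Map1b at 669 and 391 CPM, Elavl2 at 720.0 and 469 CPM, Stmn2 at 661 and 475 CPM, and Pcp4 at 886 and 1273 CPM. At least 1.5-fold lower were 3 of the 10 (Dcx, Map1b and Elavl2; 19.6% of all genes) and 0 were at least 1.5-fold higher (16.1% of all genes). The intervals, which narrow with the UMIs of a gene, lay wholly below 0 for 5 (10.4% of all genes) and wholly above 0 for 2 (9.42% of all genes). The 5 were Dcx, Map1b, Elavl2, Stmn2 and Calb2, the last with a log2 ratio of −0.27 (−0.50 to −0.04). Within sub-clusters 0 and 1, Stmn2 had log2 ratios of −0.22 (−0.60 to 0.16) and 0.54 (−0.38 to 1.58). Those of Calb2 were positive in both, at 0.15 and 2.65. The part of the sub-cluster mix in the joined ratios was not tested. When the 10 genes and the mt- genes were used in the clustering, the median over neuroblast-like cells was 0.11, from 8 Opa1 cKO cells in those sub-clusters.

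Dcx and Elavl2 were lower in Opa1 cKO within both sub-clusters. Dcx was at 606 CPM (502 to 726) in CT against 319 CPM (234 to 426) in Opa1 cKO cells of sub-cluster 0, which is a log2 ratio of −0.93 (−1.45 to −0.42), and at 283 and 208 CPM in sub-cluster 1, where 16 and 37 UMIs left the log2 ratio at −0.45 (−1.33 to 0.50). Elavl2 had log2 ratios of −0.80 (−1.28 to −0.33) in sub-cluster 0 and −0.77 (−1.27 to −0.26) in sub-cluster 1. For Map1b they were −0.48 (−0.90 to −0.07) and −0.66 (−1.38 to 0.10), and for Elavl4 −0.58 (−1.21 to 0.04) and −0.52 (−1.04 to 0.02). All 4 genes thus had their lower level in Opa1 cKO in each sub-cluster, with the interval reaching 0 for Dcx and Map1b in sub-cluster 1 and for Elavl4 in both. At least 1.5-fold lower in sub-cluster 0 were 2 of the 10 genes, against 712 of 3426 genes. In sub-cluster 1 they were also 2 of the 10, against 360 of 2195 genes.

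Of the neuroblast-like sub-clusters, sub-cluster 1 had intervals above 0 for Pcp4, Igfbpl1 and Calb2, and in sub-cluster 0 all of these reached 0. At least 1.5-fold higher in sub-cluster 1 were 2 of the 10 genes, against 493 of 2195 genes. In sub-cluster 0 they were 0 of the 10, against 604 of 3426 genes. The share of all genes with such intervals is not given here, so these calls do not set the genes apart. In sub-cluster 1 Pcp4 was at 1008 CPM (764 to 1307) in CT against 1702 CPM (1516 to 1905) in Opa1 cKO, which is a log2 ratio of 0.76 (0.34 to 1.19), and in sub-cluster 0 it was at 851 and 742 CPM, with a ratio of −0.20 (−0.56 to 0.16). The log2 ratios of Igfbpl1 were 0.50 (0.27 to 0.74) in sub-cluster 1 and 0.04 (−0.12 to 0.19) in sub-cluster 0. Calb2 was nearly absent from CT cells of sub-cluster 1, with 4 UMIs in 16 cells, and had 79 UMIs in 57 Opa1 cKO cells (70.8 and 444 CPM), while in sub-cluster 0 it was at 1569.5 and 1742 CPM. Its log2 ratio was 2.65 (1.24 to 4.56) in sub-cluster 1 and 0.15 (−0.10 to 0.40) in sub-cluster 0. Whether these genotype differences vary between sub-clusters was not tested, as each rests on 1 library per genotype.

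Cycling progenitor-like cells (42 CT and 52 Opa1 cKO cells) held less of most of the 10 genes. Calb2 had 3 UMIs in CT against 0 in Opa1 cKO cycling cells and Stmn2 5 and 0, where 0 of 52 cells allows up to 5.77% of cells with a UMI, whereas Stmn1 was at 4919.9 and 4569 CPM and Elavl4 at 401 and 342 CPM. Tubb3 was at 298 CPM (225 to 388) in CT against 127 CPM (83.1 to 186) in Opa1 cKO cycling cells, which is a log2 ratio of −1.23 (−1.96 to −0.53), and in neuroblast-like cells the ratio was −0.16 (−0.34 to 0.02), a difference that was not tested. For Dcx the ratio was −1.21 (−2.40 to −0.12), on 23 and 11 UMIs. Pcp4 was higher in Opa1 cKO cycling cells, at 135 CPM in CT against 377 CPM in Opa1 cKO, which is a log2 ratio of 1.48 (0.81 to 2.19). The plot of levels within the class places these values beside the neuroblast-like sub-clusters.

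**Figure D4:**
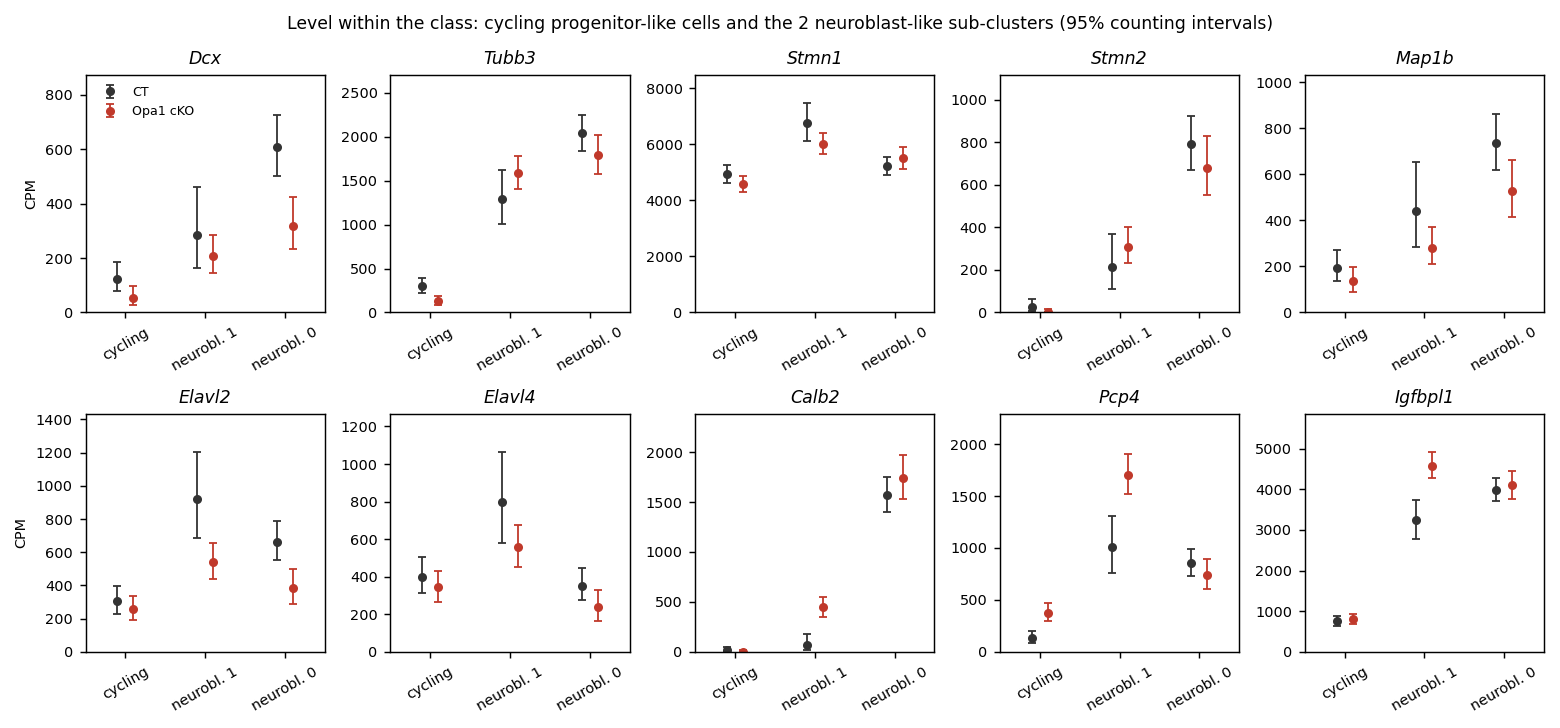
CPM of each of the 10 genes in cycling progenitor-like cells and in neuroblast-like sub-clusters 1 and 0, for CT (dark) and Opa1 cKO (red); axes start at 0, and bars are 95% Poisson intervals. Dcx is lower in Opa1 cKO in each group, and Pcp4 stands at 1008 CPM in CT against 1702 CPM in Opa1 cKO in sub-cluster 1 and at 851 and 742 CPM in sub-cluster 0.

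Opa1 cKO cells were then split by their own mitochondrial transcripts, at 1% of UMIs from the 13 mt- mRNAs. Of the 172 Opa1 cKO cells, 83 fell under 1% and 89 were at or above it, while 3 of 140 CT cells fell under 1%. Median depth was 3165 UMIs in the low and 3126 UMIs in the higher group, and neuroblast-like cells made up 65.1% and 58.4% of them. Cycling progenitor-like cells made up 24.1% of the low and 36.0% of the higher group. The part of this mix in the ratios was not tested. The median log2 ratio of low over higher share was −0.11 for the 10 genes and 0.01 for all 5041 genes, and 1 of 10 was at least 1.5-fold lower (Pcp4; 9.58% of all genes) and 0 at least 1.5-fold higher (11.7%). Intervals lay wholly below 0 for 3 of the 10 (Tubb3, Stmn1 and Pcp4; 3.19% of all genes) and wholly above 0 for 1 (Calb2; 4.34%). With the split at 0.5% in place of 1% the median of the 10 genes was −0.65, and with the split at 2% it was 0.09. Both groups come from the same library, so these ratios describe it and carry no replicate error.

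Among Opa1 cKO cells, those of higher mitochondrial share held more Pcp4. It was at 559 CPM in CT, 1030.2 CPM (920.4 to 1149) in Opa1 cKO cells of higher share and 668 CPM (578 to 768) in those of low share, so the cells of low share stood nearest to CT, with a log2 ratio over CT of 0.26 (−0.02 to 0.53). Dcx was at 362 CPM in CT, 212 CPM (164 to 270.3) at higher and 145 CPM (105 to 195) at low share, and its log2 ratio over CT was −0.77 (−1.20 to −0.35) in cells of higher and −1.32 (−1.84 to −0.83) in cells of low share. Calb2 was at 713 CPM in CT, 554 CPM at higher and 745 CPM at low share. Map1b was at 462, 258 and 287 CPM, and thus lower than CT by similar amounts in both groups, while Elavl4 was at 422, 319 and 395 CPM. Tubb3 was at 1201, 1114 and 897 CPM and Stmn1 at 5207, 5293 and 4638 CPM, so that for both the cells of higher share lay within the counting interval of CT. For 6 of the 10 genes the interval of low over higher share reached 0, with log2 ratios of −0.55 (−1.14 to 0.03) for Dcx, 0.15 (−0.30 to 0.61) for Map1b, 0.31 (−0.09 to 0.71) for Elavl4, −0.03 (−0.47 to 0.41) for Stmn2, −0.27 (−0.66 to 0.12) for Elavl2 and 0.02 (−0.12 to 0.16) for Igfbpl1.

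The same split within neuroblast-like cells (52 of higher and 54 of low share) gave larger differences for several genes. At least 1.5-fold lower at low share were 2 of the 10 (Pcp4 and Dcx), against 369 of 3059 genes, and 0 were higher, against 386. Intervals lay wholly below 0 for 5, namely Pcp4, Tubb3, Dcx, Stmn1 (log2 ratio −0.21) and Igfbpl1 (−0.23). The ratios of Map1b (0.29) and Elavl4 (0.30) were positive, with intervals that reached 0. Pcp4 was at 1743 CPM at higher and 812 CPM at low share, against 886 CPM in CT, and the log2 ratio of low over higher was −1.10 (−1.41 to −0.80). For Tubb3 the levels were 1993 and 1371 CPM, against 1871 CPM in CT, with a log2 ratio of low over higher share of −0.54 (−0.79 to −0.29), and for Dcx 332 and 184 CPM, against 534 CPM, with a log2 ratio of low over higher share of −0.85 (−1.55 to −0.18). The interval for Calb2 reached 0 here, with a log2 ratio of −0.03 (−0.35 to 0.29). Cycling progenitor-like cells had the opposite order for Pcp4, with overlapping intervals. It was at 302 CPM (214 to 414) at higher and 497 CPM (353 to 679) at low share. In NSC pool-like cells, where most of the 10 genes were low, Map1b had 10 UMIs (3.03 CPM) at higher and 43 UMIs (8.01 CPM) at low share, with a log2 ratio of low over higher share of 1.40 (0.39 to 2.56). Stmn1 was at 70.5 CPM in CT, 87.2 CPM at higher and 109 CPM at low share. Pcp4 in NSC pool-like cells was at 2.42 CPM (8 UMIs) at higher and 3.91 CPM (21 UMIs) at low share. Its log2 ratio of low over higher share, 0.69 (−0.54 to 2.08), had an interval that reached 0.

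**Figure D5:**
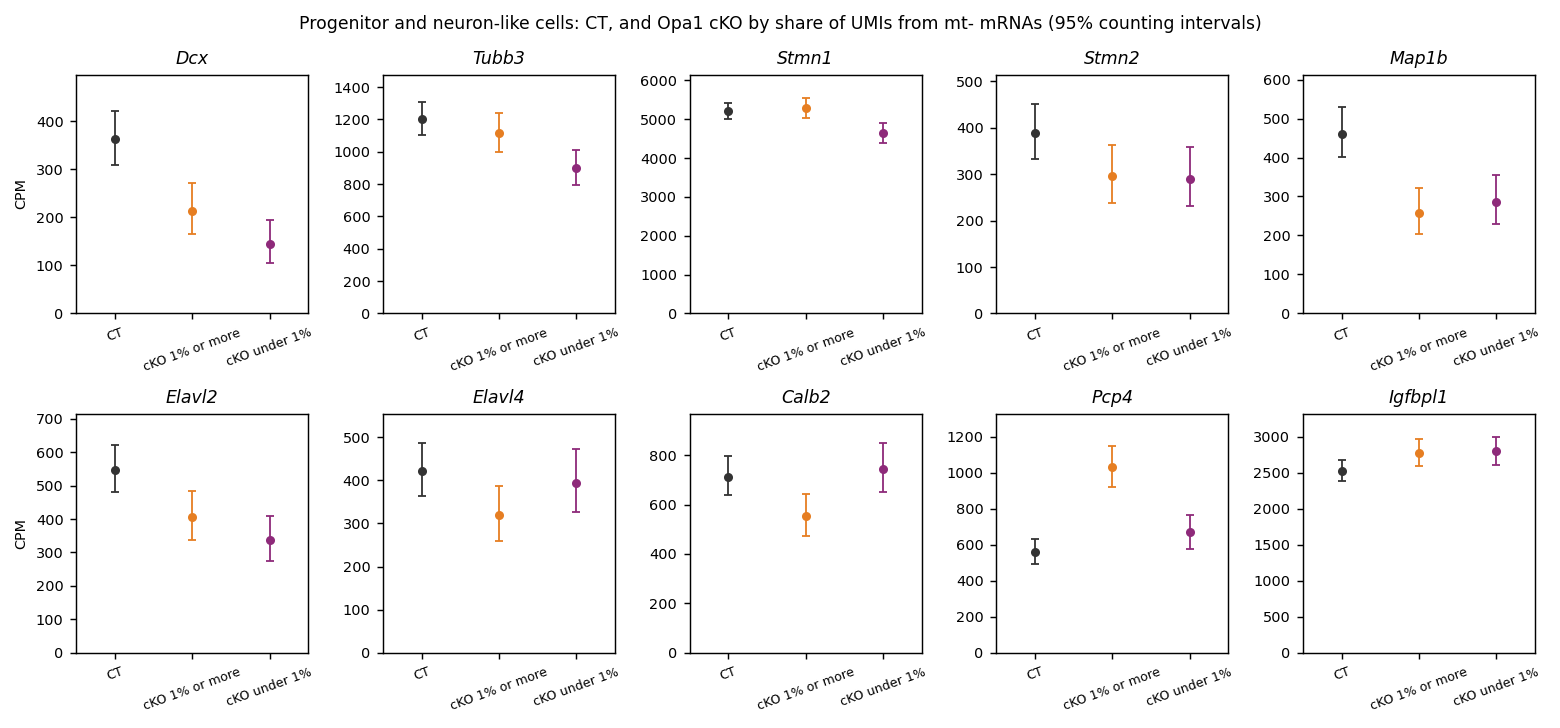
CPM of each of the 10 genes in progenitor and neuron-like cells of CT (140 cells) and of Opa1 cKO with at least 1% (89 cells) and under 1% (83 cells) of UMIs from mt- mRNAs; axes start at 0, and bars are 95% Poisson intervals. Pcp4 stands highest in Opa1 cKO cells of higher share (1030.2 CPM), and Dcx lowest in those of low share (145 CPM).

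Other genes of the same functions were read from 7 lists that do not contain the 10 genes, counting those with at least 20 UMIs in progenitor and neuron-like cells, where 20.1% of all genes were at least 1.5-fold lower in Opa1 cKO and 15.5% higher. Among tubulins and other microtubule genes, 8 of 32 were at least 1.5-fold lower and 0 higher, with a median log2 ratio of −0.31. Dpysl2, which binds tubulin dimers in growing axons, was at 1036 CPM in CT against 573 CPM in Opa1 cKO (log2 ratio −0.85, −1.06 to −0.65), and Cdk5r1, the neuronal activator of the kinase Cdk5, at 309 and 173 CPM. At the other end were Ndel1, a dynein partner, at 48.6 and 60.9 CPM, and the beta-tubulin Tubb2a at 209.8 CPM in CT against 265 CPM in Opa1 cKO (log2 ratio 0.34, −0.04 to 0.72). Of actin and growth cone genes, 8 of 20 were lower and 0 higher (median −0.42). Enah, an actin filament elongation factor, was at 194 and 79.1 CPM, Basp1, a growth cone membrane protein, at 378 CPM in CT against 178 CPM in Opa1 cKO (log2 ratio −1.09, −1.45 to −0.73), the ankyrin gene Ank2 at 115 and 140.0 CPM and Gap43, also of the growth cone, at 148 and 189 CPM. Among migration and adhesion genes 7 of 16 were lower and 0 higher (median −0.45). They ran from the adhesion molecule Chl1, at 92.7 CPM in CT against 31.3 CPM in Opa1 cKO (log2 ratio −1.57, −2.43 to −0.75), and the semaphorin Sema3c, at 236 and 109 CPM, to Igsf8 at 446 and 465 CPM and the teneurin Tenm4 at 55.2 and 59.3 CPM. Among RNA-binding and splicing genes of neurons 7 of 19 were lower and 0 higher (median −0.35), with the splicing repressor Ptbp2 at 209.8 CPM in CT against 97.2 CPM in Opa1 cKO (log2 ratio −1.11, −1.60 to −0.63), Celf2 at 614 and 390.4 CPM, the neuronal splicing factor Srrm4 at 92.7 and 97.2 CPM and Ptbp1, the form of dividing cells, at 53.0 and 60.9 CPM. The neuronal fate transcription factors had the lowest median of the 7 lists, −0.68, with 14 of 20 at least 1.5-fold lower and 0 higher. Neurod2 was at 83.9 CPM in CT against 21.4 CPM in Opa1 cKO (log2 ratio −1.97, −3.0 to −1.03) and Bhlhe22 at 208 CPM in CT against 65.9 CPM in Opa1 cKO (log2 ratio −1.66, −2.23 to −1.11), both factors of differentiating neurons, while Eomes and Neurog2, factors of intermediate progenitors, were at 170.0 and 166 CPM and 132 and 147 CPM.

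Lists tied to later stages and to calcium stood on the other side, as Pcp4 did. Of the synaptic and mature granule neuron genes 9 of 20 were at least 1.5-fold higher in Opa1 cKO and 4 lower, with a median log2 ratio of 0.40. Snap25, a protein of synaptic vesicle fusion, was at 83.9 CPM in CT against 265 CPM in Opa1 cKO (log2 ratio 1.66, 1.14 to 2.21), and Nrgn, which like Pcp4 binds calmodulin, at 13.2 CPM in CT against 72.5 CPM in Opa1 cKO (log2 ratio 2.45, 1.22 to 3.97). The glutamate receptor subunit genes Gria2 and Grin2b of the same list were lower, at 486 CPM in CT against 270.1 CPM in Opa1 cKO (log2 ratio −0.85, −1.15 to −0.55) and 83.9 CPM in CT against 52.7 CPM in Opa1 cKO (log2 ratio −0.67, −1.40 to 0.05). Among the listed neuronal genes tied to calcium, not all of which bind it, 3 of 9 were higher and 0 lower (median 0.27). Calm2, a calmodulin gene, was at 2266 CPM in CT against 2275 CPM in Opa1 cKO (log2 ratio 0.01, −0.11 to 0.12), Ncs1, a neuronal calcium sensor, at 59.6 and 49.4 CPM, and Nnat at 1884 CPM in CT against 3054 CPM in Opa1 cKO (log2 ratio 0.70, 0.58 to 0.82). The mature neuron markers summed to 135 CPM in CT against 395 CPM in Opa1 cKO, with 1 and 0 of 8 at 0. In neuroblast-like cells they summed to 210 CPM in CT against 618 CPM in Opa1 cKO, and their part in these values was not tested.

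Single cells held several of the 10 genes together. Thinned neuroblast-like cells had a median of 6.50 of the 10 genes in CT (range 3 to 10) and 6 in Opa1 cKO (1 to 9), and 88% and 84.8% of cells held 5 or more. Thinned cycling progenitor-like cells had a median of 2 in both libraries, and NSC pool-like cells a median of 0. Calb2 and Pcp4 were detected together in 25 of the 92 CT cells and 31 of the 99 Opa1 cKO cells, Calb2 without Pcp4 in 26 and 15, and Pcp4 without Calb2 in 19 and 39. Cells with Pcp4 and no Calb2 were thus more numerous, and cells with Calb2 and no Pcp4 less numerous, in Opa1 cKO. Stmn2 and Dcx were found together in 25 CT and 19 Opa1 cKO cells, and neither in 22 and 46. For the paralogs Elavl2 and Elavl4 the cells with both numbered 26 and 25.

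Cells without a Dcx UMI still held the other genes. Before thinning, 62 of 94 CT and 57 of 106 Opa1 cKO neuroblast-like cells had a Dcx UMI. Among cells without a Dcx UMI, Igfbpl1 was detected in 93.8% for CT and 91.8% for Opa1 cKO, and Tubb3 in 93.8% and 81.6%. Stmn2 was found in 53.2% of CT cells with and 59.4% without Dcx, and in Opa1 cKO in 71.9% with and 49.0% without. Cells with Dcx were somewhat deeper, with median UMIs of 2530 against 2394 in CT against 2919 against 2712 in Opa1 cKO.

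Sorted cells without a YFP UMI, which the filter removes, gave a second view from the same libraries. When cells were clustered without the YFP filter, 87 CT and 60 Opa1 cKO cells of the progenitor and neuron-like class had no YFP UMI, with median depths of 2215 and 2122 UMIs. In these, Dcx was at 445 CPM in CT (357 to 548) and 267 CPM in Opa1 cKO (189 to 367), Map1b at 774 and 422 CPM, and Elavl2 at 551 and 267 CPM. Stmn2 was at 744 and 408 CPM in these cells, Elavl4 at 344 and 197 CPM and Tubb3 at 1649 and 1209 CPM. The lower levels of all these genes in the Opa1 cKO library were therefore present in cells with and without a YFP UMI, in some cases with overlapping intervals. Pcp4, by contrast, was at 754 CPM in CT against 598 CPM in Opa1 cKO cells without a YFP UMI, and Calb2 at 1310.2 and 1610.1 CPM. Cells with a YFP UMI in that clustering had median depths of 2831 and 3185 UMIs, and whether the cells without one carried the recombined allele was not measured.

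Genes with a like pattern over the 7 classes of both libraries (14 points) were ranked by Pearson's r of log2(CPM + 10), as a description. The points share 2 libraries, and all 10 genes are highest in the same class, so a high r says little more than that. For Dcx they were Hecw1, Sstr2 and Dll3 (r of 0.980 to 0.983), for Igfbpl1 Hecw1, Dll3 and Eomes (0.980 to 0.983) and for Calb2 Dll3, Cdca3 and Mex3a (0.982 to 0.987), so Dll3 was near all 3. Elavl2 ranked nearest to Rbfox3, Srrm4 and Actl6b (0.987 to 0.988) and Elavl4 to Rnf165, Rbfox3 and Mfap4 (0.988 to 0.992), with Rbfox3, the gene of the neuronal marker NeuN, on both lists. Pcp4 was nearest to Nudt21, Neurog2 and Ube2t (0.952 to 0.975), of which Neurog2 is a factor of intermediate progenitors, Tubb3 to Mex3b, Hdgfl3 and Rasgef1b (0.955 to 0.979), and Stmn2 to Fam57b, Lzts1 and Mycl (0.953 to 0.970). The broader genes had lower values, with Pak7, Elavl3 and Rangap1 for Stmn1 (0.911 to 0.925) and Fbl, Marcksl1 and Rpsa for Map1b (0.902 to 0.936).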

How the data were processed

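Droplet single-cell RNA-seq was analysed in 1 library of CT and 1 of Opa1 cKO mice, each a pool of 3 mice. The deposited values are UMI counts per gene and cell barcode, made by the authors with Cell Ranger and aligned to mm10; the submitters' processing notes name version 2.1.1 and the matrix headers 3.1.0, and the annotation used for counting is not given in the sources used here. A count of 0 may miss mRNA that was present, and 3′ counting does not separate isoforms.

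A cell was kept when it had over 600 and under 7500 genes, under 20% mt- UMIs and at least 1 YFP UMI. Both libraries were normalised with SCTransform (sctransform 0.4.2) and clustered in Seurat 5.3.0 (R 4.3.3) on 8 dimensions at resolution 0.2, with the 10 genes and the 13 mt- genes left out, and progenitor and neuron-like cells were sub-clustered at resolution 0.5. A cluster was named for a cell type when at least 3 of its markers were among the 50 genes of highest fold over the median of the other clusters; comparison with the median was adopted after the clusters had been seen. Doublets were not removed, because the caller in scanpy 1.11.5 marked 0.287% of CT and 0.0980% of Opa1 cKO cells and so had not worked.

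Counts were summed per class and library and given as CPM, that is scaled to the total UMIs of the class. Intervals (95%) are exact Poisson for CPM, exact binomial (Clopper-Pearson) for shares and an exact binomial split of the summed UMIs for log2 ratios. They cover counting error only, since cells are not replicates and no test between genotypes was made. Ratios are given for genes with at least 20 UMIs over both groups. Upper limits for a count of 0 use 3 counts. Scripts used scipy 1.17.1, numpy 2.4.6, matplotlib 3.10.9 and pandas 2.3.3 under Python 3.11.15, and were tested on simulated counts. The 10 genes, the 7 gene lists, the markers and the alternatives were chosen with earlier results of these data known, and nothing is supported by that choice. From each list the 2 genes of highest and the 2 of lowest log2 ratio with at least 50 UMIs in progenitor and neuron-like cells are named, and for each of the 10 genes the 3 with the highest correlation. The values of 1 gene that this rule names are not reported here. Promoter sequences are from RefSeq.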

Additional observations from a re-analysis of the deposited data

Results flagged for a closer look

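Map1b and Elavl2 had log2 ratios of opposite sign in different classes. In progenitor and neuron-like cells the ratios of Opa1 cKO over CT were −0.76 for Map1b and −0.56 for Elavl2, and in NSC pool-like cells both genes had higher values in Opa1 cKO. There Map1b had 3 UMIs in CT against 53 in Opa1 cKO (0.823 and 6.11 CPM), and Elavl2 5 and 35 UMIs (1.37 and 4.04 CPM). The levels in NSC pool-like cells are far below those of progenitor and neuron-like cells. Stmn1 (0.51), Calb2 (0.92), Stmn2 (1.07) and Tubb3 (0.68) also had positive log2 ratios there and negative ones in progenitor and neuron-like cells. Elavl4 (−0.42) and Igfbpl1 (−0.15) were negative there. Of 9 genes with at least 20 UMIs, 6 were at least 1.5-fold higher, against 1669 of 11290 genes. Of the 9, the interval lay wholly above 0 for 4 (Stmn1, Map1b, Elavl2 and Calb2). It reached 0 for 5, among them Tubb3, Stmn2 and Pcp4. The limit of 20 UMIs was set over both libraries together, and Map1b, Elavl2 and Stmn2 (4 and 20 UMIs) met it mainly through Opa1 cKO. The count of 6 therefore gives no support for a rise of the set. The median log2 ratio was 0.68 over the 9 and 0.04 over all genes. With 1 library per genotype the difference between the classes was not tested.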

How the results depend on the processing

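All 10 genes had their highest CPM in progenitor and neuron-like cells under each of the 13 alternatives run, and the share of all genes that did was not counted. There the median log2 ratio of the 10 genes lay between −0.33 and −0.17 over 13 alternatives, and that of Dcx between −1.19 and −0.96, of Map1b between −0.87 and −0.68, of Elavl2 between −0.64 and −0.49 and of Pcp4 between 0.38 and 0.74. The number of genes at least 1.5-fold lower was 4 both without the YFP filter and after thinning to 1500 UMIs, against 2. The share of all genes at those 2 settings is not given here. The median over neuroblast-like cells was 0.11 when the 10 genes and mt- genes were used in clustering, and otherwise negative, with −0.05 under log-normalization. The size of this group also varied, from 94 CT and 106 Opa1 cKO cells. It held 78 and 53 with integrated stress response genes also left out of clustering, and 80 and 56 under log-normalization. Without the YFP filter it held 107 and 78, and with the 10 genes and mt- genes used 83 and 8. The median of the mitochondrial split was −0.65 with the split at 0.5% and 0.09 at 2%, and the causes were not tested. Without the YFP filter Igfbpl1 had a log2 ratio of 0.00 and Pcp4 of 0.38. For Stmn1 the ratio was 0.06 as a mean over cells and 0.02 after thinning. It was 0.005 without the sub-cluster bearing NSC markers and 0.12 without the 5% of cells with most UMIs. Leaving out those cells, or the sub-cluster bearing NSC markers, was chosen after seeing the data. Doublet removal, and the second clustering of lineage cells for the sub-clusters, were not run. No paired analysis was possible because each genotype has 1 library. The limits are 1 pool of 3 mice per genotype, counting intervals without replicate error, few cells in the class, and few UMIs per cell for Dcx, Stmn2 and Elavl4.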
